A study of Drosophila melanogaster with 18 samples.

Results

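The constructs described here are the triple motif mutants, reporters in which all sites of the 3 motif classes studied in an enhancer were mutated together. They were chosen by name alone, as every construct ending in exactly -DSZ, -DS1 or -DZ1, where D stands for mutated Deaf1 sites, S for Schlank, Z for ZIPIC and 1 for CG12236-PB sites. The libraries held 11 such constructs of 93 in all, 4 of them -DSZ, 3 -DS1 and 4 -DZ1, on 35 of 312 tags. The triple mutant of the 12th enhancer series, ChIPCRM2613-DZ1, was not analysed here.

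Each reporter carried an enhancer upstream of a reporter gene with its own random tag of 20 bases, and all reporters were inserted at 1 landing site of the Drosophila melanogaster genome, so that tag RNA over tag DNA measures the output of the enhancer. Males from the reporter pool were mated with females that carried the rat surface protein CD2 as a marker, embryos laid within 2.25 h were kept for 11 h at 18 °C, and dissociated cells were sorted with an antibody to CD2. The twi:CD2+ cells were the CD2-positive cells of embryos with CD2 under a twi enhancer, which marks the whole mesoderm, in 3 collections. The mef2:CD2- cells were the CD2-negative cells of embryos with CD2 under the mef2[IE-D5] enhancer, which leaves out fusion-competent myoblasts and keeps all other cells of the embryo, in 6 collections over 2 weeks (replicates 1 to 3 in week 1 and 4 to 6 in week 2).

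RNA and DNA of each collection came from the same sorted cells. The reporter pool and the landing site were shared by both cell populations. All twi:CD2+ collections were made before the mef2:CD2- collections, and the paper describes separate parental flies for its experiments. Cell population therefore cannot be told apart from collection time and parental flies. The tables hold reporter tags only, so no marker gene could be used to check the sorted cells. All collections drew on pools of transformants, so tags and collections repeat one another to different degrees. P-values over values of single tags in single collections treat these values as independent, so repeats of the same tag count as replicates. Such p-values measure only the spread among these values and do not take tags as the unit.

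Deaf1 is a DNA-binding protein first known as a cofactor of the homeotic protein Deformed and can act both in activation and in repression. ZIPIC is a zinc finger protein that recruits the insulator cofactor CP190. Schlank is a ceramide synthase that also has a homeodomain and is known to repress the lipase gene lip3, while CG12236-PB is known mainly by its binding motif. The enhancers are mesodermal elements of about the same length, and their wildtype (WT) forms hold sites of 3 of these 4 classes each.

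The changed bases are shown for CBP2862, the enhancer with the lowest activity left, and for ChIPCRM2847 and hth_3, which kept theirs. Positions are counted from 1 at the first enhancer base, only the first 385 bases of each construct were read, and the base that differs is in capitals. CBP2862 lies just upstream of fwd (a Golgi lipid kinase gene on chromosome 3L), and 5 single-base changes in Deaf1 sites fell in the bases read, G12C, C61G, G111C, G128A and C202G. Its Schlank and ZIPIC changes were not in these bases.

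CBP2862-WT positions 2 to 26: cccgttactcGtagcgtaagcgggt
CBP2862-DSZ positions 2 to 26: cccgttactcCtagcgtaagcgggt
CBP2862-WT positions 51 to 75: aatgactaacCgaaacaaagaggtt
CBP2862-DSZ positions 51 to 75: aatgactaacGgaaacaaagaggtt
CBP2862-WT positions 101 to 125: aatcggtgacGagtgagtcttcttg
CBP2862-DSZ positions 101 to 125: aatcggtgacCagtgagtcttcttg
CBP2862-WT positions 118 to 142: tcttcttgccGaaaatatctcattt
CBP2862-DSZ positions 118 to 142: tcttcttgccAaaaatatctcattt
CBP2862-WT positions 192 to 216: gctctggtttCgttgcatttggtga
CBP2862-DSZ positions 192 to 216: gctctggtttGgttgcatttggtga

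ChIPCRM2847 lies in an intron of InR, the insulin receptor gene on chromosome 3R. Shown are a Deaf1 site with C38G and a Schlank site with C176G and T179G. The Deaf1 changes C194G and C307T also fell in the bases read.

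ChIPCRM2847-WT positions 28 to 52: agctgcgaaaCgagagtttgtggta
ChIPCRM2847-DS1 positions 28 to 52: agctgcgaaaGgagagtttgtggta
ChIPCRM2847-WT positions 166 to 190: ggaccgcgtcCacTaatcgctaaat
ChIPCRM2847-DS1 positions 166 to 190: ggaccgcgtcGacGaatcgctaaat

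In hth_3, named for the homeobox gene hth (homothorax) on chromosome 3R, a Deaf1 change (C269G) and a ZIPIC change (G272A, G273C and G274T) lay beside each other.

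hth_3-WT positions 259 to 283: ggggcgtggaCgaGGGccggaggag
hth_3-DZ1 positions 259 to 283: ggggcgtggaGgaACTccggaggag

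All 12 triple mutants in the table of sequences carried 3 to 8 changed bases in the 385 bases read, at exactly the positions changed in the single mutants of the same enhancer. Of the 35 changed Deaf1 bases, 31 broke a CG dinucleotide, the core of the Deaf1 motif. The triple mutants therefore added no new site to those tested alone, as far as the bases read can show.

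Activity is the share of RNA UMIs (unique molecular identifiers, random bases read with each tag) on a tag divided by its share of DNA UMIs in the same collection, so a tag with average output has an activity of 1. With 8 bases there are 65536 possible UMIs, and single tags reached 53453 RNA UMIs in a library, so different molecules shared UMIs and the most active tags were undercounted. A value was kept where the tag had at least 65 DNA UMIs and was present in the RNA library, and each tag in each collection is 1 observation. A construct needed 4 observations in a population. Libraries of twi:CD2+ cells held 813922 to 1366066 RNA UMIs and 317396 to 621449 DNA UMIs. Among mef2:CD2- cells, RNA totals were 560294 to 1201998 UMIs, and DNA totals were 54038 to 116821 UMIs in week 1 and 143411 to 248151 in week 2. The triple mutants took 7.02% to 11.5% of the RNA UMIs and 9.00% to 12.9% of the DNA UMIs of a library.

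In twi:CD2+ cells, 9 triple mutants passed, with 69 observations on 23 tags, out of 86 constructs and 687 observations. In the mef2:CD2- population, all 11 passed, with 134 observations on 25 tags, out of 91 constructs and 1340 observations. Together 26 of the 35 tags gave a kept value, and the other 9 never reached the DNA minimum. ChIPCRM5792 had no WT construct with enough observations, so 8 triple mutants in twi:CD2+ and 10 in mef2:CD2- cells could be set against WT. As marks on the scale, the Act57B control enhancer had an activity of 6.23 ± 2.58 in twi:CD2+ cells (SD, n = 10) and 5.11 ± 2.45 in mef2:CD2- cells (SD, n = 20), and the BTub60D control with all its bin and bap sites mutated had 0.0731 ± 0.0671 (SD, n = 10) and 0.0630 ± 0.0328 (SD, n = 15).

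The activity that remained without all 3 motif classes ranged from 10.5% of WT to more than WT. Against WT, CBP2862 collapsed in both populations, 4 enhancers (ChIPCRM2847, ChIPCRM5405, ChIPCRM5857 and hth_3) kept at least 0.5 of their WT activity in both with no call, and ChIPCRM2497 and ChIPCRM5432 lay between. ChIPCRM2000 lay between in twi:CD2+ cells and collapsed in mef2:CD2- cells, and CG7759_33 was higher than WT in mef2:CD2- cells. Collapsed means a fold under 0.25 that was called lower, and kept a fold of at least 0.5 that was not called lower. By a two-sided exact permutation test on mean ranks, with Benjamini-Hochberg adjustment over the pairs of a series and a threshold of 0.1, the triple mutants called lower were 2 of 8 in twi:CD2+ and 4 of 10 in mef2:CD2- cells. Over all mutants the same calls made up 20.3% and 39.1%. None of the 8 was called higher in twi:CD2+ cells, against 4.69% of all mutants, and 1 of 10 was in mef2:CD2- cells, against 11.6%. With tag means in place of observations, none of the calls against WT or double mutants remained. Such a test has a smallest p of 0.1 with 3 tags against 3, before any adjustment. Among these calls only ChIPCRM2847-DS1 over D1 in mef2:CD2- cells, with a smallest p of 0.0667, could fall under the threshold. For the others this outcome was fixed in advance and says nothing about them.

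The median fold of the triple mutants over WT was 0.573 in twi:CD2+ and 0.751 in mef2:CD2- cells. Over all mutants it was 0.700 and 0.818, with 0.679 and 0.735 for double mutants and 0.789 and 0.936 for single mutants. In these medians the triple mutants were thus close to the double mutants in mef2:CD2- cells and lower than them in twi:CD2+ cells. Individual enhancers differed far more than the classes did. The classes do not cover the same enhancers, since ChIPCRM2613 entered only with single and double mutants. In twi:CD2+ cells the same holds for CG7759_33 and ChIPCRM3407. The lower median of the triple mutants there can therefore not be told apart from this difference in enhancers.

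CBP2862 is the clearest case of collapse. CBP2862-DSZ had mean activities of 0.0745, 0.139 and 0.116 in the 3 twi:CD2+ collections, against 1.20, 1.05 and 0.575 for CBP2862-WT. In mef2:CD2- cells, CBP2862-DSZ had 0.0698, 0.129, 0.0700, 0.205, 0.0860 and 0.121 in replicates 1 to 6, against 0.511, 0.640, 2.44, 0.981 and 0.590 for CBP2862-WT in replicates 1, 2, 4, 5 and 6. Every collection of the triple mutant lay below every collection of WT, and no observation overlapped. The triple mutant kept 10.9% of WT activity in twi:CD2+ cells (0.110 ± 0.0701, n = 9, against 1.01 ± 0.564, n = 4, SD; fold 0.109 ± 0.0385 SE; adjusted p = 0.00653, exact permutation test). It kept 10.5% in mef2:CD2- cells (0.108 ± 0.0864, n = 17, against 1.03 ± 0.806, n = 5, SD; fold 0.105 ± 0.0418 SE; adjusted p = 7.59e-05, exact permutation test). The fully mutated BTub60D control, as given above, had 0.0731 and 0.0630.

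The 95% interval of that fold from the spread between tags, which treats the 3 triple mutant tags and 2 WT tags as the units, was 0.0289 to 0.217 for twi:CD2+ cells, with 0.0282 to 0.196 for mef2:CD2- cells. The WT side is thin, since 1 of its 2 tags gave only 1 value in twi:CD2+ cells (1.79, against a mean of 0.745 for the other tag). Its DNA UMIs were also few, and with a minimum of 200 DNA UMIs the WT of CBP2862 had no value in mef2:CD2- cells. Neither week of mef2:CD2- cells had enough WT observations to be tested alone.

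The 3 tags of CBP2862-DSZ can be told apart only by their random sequence, and they are shown because they disagreed in 1 population.

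CBP2862-DSZ tag with the lowest mean in mef2:CD2- cells: ACGCCCGAGCATGCACATAT
CBP2862-DSZ tag with the middle mean: CGCCTTATAGGTAGTAAATA
CBP2862-DSZ tag with the highest mean: CGTAGTCCAGTGCAATCTCT

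In twi:CD2+ cells these tags averaged 0.0982, 0.107 and 0.125, a 1.28-fold range. Among mef2:CD2- cells they averaged 0.0181, 0.114 and 0.177, a 9.78-fold range, while the other triple mutants with several tags had ranges of 1.16 to 2.93 in either population. The lowest tag was low in each of its 5 kept mef2:CD2- collections, at 0.00307 to 0.0351. Without the highest tag the fold over WT in mef2:CD2- cells was 0.0684, and with medians in place of means it was 0.164.

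ChIPCRM2000-DZ1 had the next lowest folds over WT. Its means, 0.0363 in twi:CD2+ and 0.0512 in mef2:CD2- cells, lay below the fully mutated BTub60D control (0.0731 and 0.0630). The activity left was thus near the floor of the scale. Mean activities of ChIPCRM2000-DZ1 were 0.0194, 0.0629 and 0.0267 in the 3 twi:CD2+ collections, against 0.0770, 0.0629 and 0.269 for WT. The groups met in the second collection, and the fold of 0.284 ± 0.158 SE (n = 6 and 7) was not called (adjusted p = 0.140, exact permutation test). In the mef2:CD2- population ChIPCRM2000-DZ1 had 0.0205, 0.0513, 0.0315, 0.0777, 0.0852 and 0.0407 in replicates 1 to 6, against 0.154, 0.123, 0.0659, 0.719, 0.179 and 0.258 for WT. The triple mutant was lower in all 6 collections, and it fell to 0.0512 ± 0.0365 (SD, n = 12), against 0.267 ± 0.266 in WT (SD, n = 11), a fold of 0.192 ± 0.0699 SE (adjusted p = 3.37e-04, exact permutation test; interval by tags 0.0781 to 0.655).

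The call in twi:CD2+ cells turns on the setting. The fold was 0.150 without replicate 2 and 0.577 without replicate 3, with no call in either, and it was 0.173 and called from read counts. The WT value of 0.719 in replicate 4 carried part of the mef2:CD2- difference, and without that replicate the fold was 0.276 and still called. Within week 1 and week 2 the folds were 0.278 and 0.176, called in each (adjusted p = 0.0130 and 0.0173, exact permutation test).

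ChIPCRM2497-DS1 and ChIPCRM5432-DZ1 kept more of their activity. ChIPCRM2497-DS1 had mean activities of 0.557, 1.39 and 0.530 in twi:CD2+ collections, against 1.64, 1.144 and 1.36 for WT, so replicate 2 ran against the other 2. Its mean of 0.824 ± 0.472 (SD, n = 9) was 0.596 ± 0.126 SE of the WT mean of 1.38 ± 0.301 (SD, n = 6), with an adjusted p of 0.0534 by the exact permutation test. The call was lost without replicate 1 (fold 0.763) or without replicate 3 (fold 0.698), and the fold without replicate 2 was 0.362. In mef2:CD2- cells its fold was 0.807 ± 0.152 SE (1.05 ± 0.711, n = 15, against 1.30 ± 0.323, n = 12; SD; adjusted p = 0.0225, exact permutation test), a call lost without replicate 2 (fold 0.873). The fold was 0.703 in week 1, still called, and 0.920 in week 2, not called.

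ChIPCRM5432-DZ1 was the most active triple mutant. ChIPCRM5432-DZ1 had mean activities of 3.02, 3.44 and 4.55 in twi:CD2+ collections, against 12.3, 6.32 and 2.89 for WT. The mean of WT in replicate 1 included a single observation of 26.0 on 1 tag, while the other WT tags averaged 4.68 and 5.11. The fold in twi:CD2+ cells, 0.465 ± 0.204 SE (n = 9 and 7), was not called (adjusted p = 0.166, exact permutation test) and was 0.868 without replicate 1. It was called lower with UMIs corrected for repeats (0.452), from reads (0.463) and without replicate 3 (0.326). Among mef2:CD2- cells the triple mutant fell to 3.34 ± 1.86 (SD, n = 16), against 6.11 ± 3.30 in WT (SD, n = 14), a fold of 0.548 ± 0.110 SE (adjusted p = 0.0116, exact permutation test). It was below WT in all 6 mef2:CD2- collections, at 4.28, 3.25, 1.94, 4.48, 3.10 and 2.46 against 7.17, 5.32, 3.35, 7.83, 7.95 and 4.81. The call was lost within each week, where the folds were 0.627 and 0.503 (adjusted p = 0.112 and 0.103, exact permutation test). The fold computed from reads instead of UMIs was 0.115, also called.

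The 4 enhancers that kept their activity differed widely in level. hth_3-DZ1 had 1.60, 2.71 and 1.59 in twi:CD2+ collections, against 2.29, 1.29 and 3.08 for WT, and its fold was 0.885 ± 0.398 SE (n = 6 and 9; adjusted p = 0.989, exact permutation test). In the mef2:CD2- population hth_3-DZ1 had 1.09 ± 0.534 (SD, n = 14), against 1.12 ± 0.385 for WT (SD, n = 18), a fold of 0.980 with an interval by tags of 0.330 to 1.87. hth_3 is therefore an active enhancer for which no loss was detectable with all 3 classes mutated, within that interval.

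ChIPCRM5857 was at the floor in either form. ChIPCRM5857-DS1 had an activity of 0.0296 ± 0.0163 in twi:CD2+ cells (SD, n = 6), against 0.0366 ± 0.0282 for WT (SD, n = 9). In mef2:CD2- cells it had 0.0263 ± 0.0185 (SD, n = 12), against 0.0253 ± 0.0130 for WT (SD, n = 18). Both forms lay below the fully mutated BTub60D control, which leaves little room to see a further loss.

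ChIPCRM5405-DSZ had 0.131, 0.271 and 0.448 in twi:CD2+ collections, against 0.142, 0.520 and 0.761 for WT, lower in each of the 3. Its fold was 0.549 ± 0.249 SE (n = 9 and 8) and was not called (adjusted p = 0.916, exact permutation test). Among mef2:CD2- cells it was 0.822 ± 0.157 SE (0.222 ± 0.130, n = 18, against 0.271 ± 0.134, n = 14; SD; adjusted p = 0.881, exact permutation test), with an interval by tags of 0.312 to 1.77. ChIPCRM2847-DS1 had 0.136, 0.192 and 0.121 in twi:CD2+ collections, against 0.160, 0.329 and 0.173 for WT, also lower in each. Its folds were 0.677 ± 0.204 SE in twi:CD2+ cells (n = 6 and 9; adjusted p = 0.336) and 0.695 ± 0.126 SE in mef2:CD2- cells (n = 8 and 11; adjusted p = 0.246), both by the exact permutation test. ChIPCRM2847-DS1 was below WT in all 6 mef2:CD2- collections too, at folds of 0.589 to 0.959. With a minimum of 20 DNA UMIs the mef2:CD2- fold of ChIPCRM2847-DS1 was 0.632 and called lower, and without its tag of higher activity it was 0.324.

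CG7759_33-DSZ was the only triple mutant called higher than WT. In mef2:CD2- replicates 1 to 6 it had activities of 1.89, 2.21, 1.48, 1.61, 2.30 and 2.38, against 0.526, 0.391, 0.488, 0.551, 0.600 and 0.815 for WT. No observation overlapped, and the mean rose to 1.98 ± 0.377 (SD, n = 6), against 0.562 ± 0.224 in WT (SD, n = 24), a fold of 3.52 ± 0.397 SE (adjusted p = 6.74e-06, exact permutation test). All 6 values came from 1 tag, while WT had 4, and the interval by tags was 1.142 to 12.3. A second tag of CG7759_33-DSZ stayed under the DNA minimum, with activities of 1.19 and 1.26 on 15 and 38 DNA UMIs in mef2:CD2- replicates 2 and 3, which are above the WT mean. In either week alone, CG7759_33-DSZ had only 3 observations and was not tested.

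ChIPCRM3407-DSZ, also on 1 tag, had 0.0361, 0.120, 0.115 and 0.209 in mef2:CD2- replicates 1 to 4, against 0.171, 0.197, 0.116 and 0.116 for WT in the same collections. The fold over WT was 0.616 ± 0.216 SE (0.120 ± 0.0709, n = 4, against 0.195 ± 0.152, n = 17; SD; adjusted p = 0.400, exact permutation test). A second tag with 32 to 41 DNA UMIs had 0.215 to 0.353, and the fold was 1.03 when the minimum was 20. ChIPCRM5792-DZ1, which had no WT to compare with, had 1.36 ± 0.589 in twi:CD2+ cells (SD, n = 9) and 1.31 ± 0.761 in mef2:CD2- cells (SD, n = 12).

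The comparison with double mutants asks what mutating the last motif class adds. Of 22 pairs of a triple and a double mutant in twi:CD2+ cells, 3 were called lower and 2 higher. Over all pairs that differ by 1 motif class the shares were 18.6% lower and 6.86% higher. In the mef2:CD2- population, 6 of 29 pairs were called lower and 5 higher, against 28.4% and 13.8% of all such pairs. The calls fell in 5 enhancers, and the median fold of a triple over a double mutant was 0.919 in twi:CD2+ and 0.878 in mef2:CD2- cells.

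In CBP2862, each double mutant kept part of the activity that the triple mutant lost. CBP2862-DSZ had 0.110 ± 0.0701 in twi:CD2+ cells (SD, n = 9), against 0.448 ± 0.228 for DS (n = 8), 0.414 ± 0.349 for DZ (n = 5) and 0.474 ± 0.233 for SZ (n = 9). The folds were 0.246 ± 0.0684, 0.266 ± 0.115 and 0.232 ± 0.0623 SE, with adjusted p of 0.00115, 0.0131 and 0.00115 by the exact permutation test. In mef2:CD2- cells CBP2862-DSZ had 0.108 ± 0.0864 (SD, n = 17), against 0.405 ± 0.149 for DS (n = 16), 0.557 ± 0.383 for DZ (n = 14) and 0.467 ± 0.161 for SZ (n = 16). There the folds were 0.267 ± 0.0573, 0.194 ± 0.0519 and 0.231 ± 0.0490 SE, with adjusted p of 7.60e-08, 1.79e-06 and 1.32e-07 by the exact permutation test. The widest of these 6 intervals by tags, for DZ in twi:CD2+ cells, ran from 0.106 to 0.797, so none reached 1. Within single weeks the 3 mef2:CD2- folds lay between 0.167 and 0.281, and each was called in each week.

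No difference was called between the triple mutant of CBP2862 and its Deaf1 single mutant. CBP2862-DSZ over CBP2862-D was 0.592 ± 0.282 SE in twi:CD2+ cells (0.110 ± 0.0701, n = 9, against 0.186 ± 0.238, n = 9; SD; adjusted p = 0.645, exact permutation test). It was 0.833 ± 0.186 SE in mef2:CD2- cells (0.108 ± 0.0864, n = 17, against 0.130 ± 0.0616, n = 18; SD; adjusted p = 0.410, exact permutation test). The intervals by tags, 0.295 to 1.78 and 0.221 to 1.26, leave room for a several-fold difference. The DS and DZ double mutants, which share the Deaf1 changes shown above, were thus each higher than the triple mutant, whereas the Deaf1 changes alone gave a level with no detectable difference from it. Over the Schlank and ZIPIC single mutants, CBP2862-DSZ was lower in both populations, by folds of 0.139 and 0.129 in twi:CD2+ cells (adjusted p = 0.00253 and 0.00115) and 0.0956 and 0.131 in mef2:CD2- cells (adjusted p = 8.47e-09 and 1.32e-07), by the exact permutation test.

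ChIPCRM5432 held the widest gap. Its D1 double mutant, with Deaf1 and CG12236-PB sites mutated, was the lowest of all 86 constructs in twi:CD2+ cells and 2nd lowest of 91 in mef2:CD2- cells. ChIPCRM5432-DZ1, with ZIPIC sites mutated as well, had 3.02, 3.44 and 4.55 in twi:CD2+ collections, against 0.0128, 0.0160 and 0.0255 for D1. In mef2:CD2- replicates 1 to 6 the D1 mutant had 0.0119, 0.0207, 0.0157, 0.0189, 0.0214 and 0.0335, while every triple mutant value given above was at least 1.94. The triple mutant was 203 ± 72.8 (SE) times the double mutant in twi:CD2+ cells (3.67 ± 2.28, n = 9, against 0.0181 ± 0.0159, n = 9; SD; adjusted p = 2.88e-04, exact permutation test) and 164 ± 28.1 (SE) times in mef2:CD2- cells (3.34 ± 1.86, n = 16, against 0.0203 ± 0.00861, n = 18; SD; adjusted p = 3.18e-09, exact permutation test). The ranges did not overlap, and the intervals by tags ran from 93.4 to 565 and from 72.3 to 410. The mef2:CD2- fold was 206 in week 1 and 138 in week 2, and 265 from read counts.

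The low D1 value was shared by its 3 tags, which averaged 0.00681, 0.0203 and 0.0272 in twi:CD2+ cells and 0.0177, 0.0183 and 0.0250 in mef2:CD2- cells. The other double mutants of ChIPCRM5432 were near the triple mutant. The fold of ChIPCRM5432-DZ1 over DZ was 1.05 ± 0.254 SE in twi:CD2+ and 1.06 ± 0.173 SE in mef2:CD2- cells, with intervals by tags of 0.378 to 2.29 and 0.446 to 2.53, and neither was called. Over Z1 it was 0.912 ± 0.211 SE in twi:CD2+ cells, with no call, and 0.744 ± 0.121 SE in mef2:CD2- cells (n = 16 and 18; adjusted p = 0.0386, exact permutation test). That call was lost in each week alone, without replicate 5 and with a minimum of 20 DNA UMIs.

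Among the single mutants of ChIPCRM5432, the fold of the triple mutant over D was 1.137 in twi:CD2+ and 0.935 in mef2:CD2- cells, and over the CG12236-PB mutant 1.22 and 1.29, none of them called. The ZIPIC single mutant had 6.39 ± 5.25 in mef2:CD2- cells (SD, n = 12), and the triple mutant was 0.524 ± 0.144 SE of it (adjusted p = 0.0360, exact permutation test; interval by tags 0.275 to 1.91). Of the changes in the bases read, T178A lies in a CG12236-PB site and A192C, C325G, T335G and C355G lie in Deaf1 sites, so the D1 and DZ1 constructs carry all 5, and their ZIPIC difference lies outside these bases.

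CG7759_33-DSZ was higher than every double mutant of its series in mef2:CD2- cells. Over DZ the fold was 19.1 ± 2.59 SE (1.98 ± 0.377, n = 6, against 0.103 ± 0.0487, n = 18; SD; adjusted p = 2.31e-05, exact permutation test; interval by tags 6.12 to 71.3). The DZ mutant had 0.0868, 0.120, 0.103, 0.0913, 0.121 and 0.0982 in replicates 1 to 6 and overlapped with no value of the triple mutant. Over DS and SZ the folds were 2.27 ± 0.377 SE (adjusted p = 0.00163) and 2.06 ± 0.342 SE (adjusted p = 0.0114) by the exact permutation test. Their intervals by tags included 1, at 0.665 to 8.98 and 0.721 to 7.77, since the triple mutant rests on 1 tag.

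ChIPCRM2847-DS1 was above its D1 double mutant in both populations. In twi:CD2+ collections it had 0.136, 0.192 and 0.121, against 0.0325, 0.123 and 0.0371 for D1, higher in each collection. The fold was 2.33 ± 0.910 SE in twi:CD2+ cells (n = 6 each; adjusted p = 0.0417) and 2.52 ± 0.485 SE in mef2:CD2- cells (0.143 ± 0.0498, n = 8, against 0.0568 ± 0.0367, n = 19; SD; adjusted p = 3.10e-04), by the exact permutation test. The intervals by tags were 0.934 to 8.48 and 0.854 to 5.38. The twi:CD2+ call was lost without replicate 1 (fold 1.95) or replicate 3 (fold 2.11), with a minimum of 200 DNA UMIs (fold 1.91) and from reads (fold 1.78), and the fold was 3.68 without replicate 2. Among mef2:CD2- cells the fold was 1.17 without the tag of higher activity, and 2.83 in week 1, while week 2 alone gave no value.

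The same triple mutant was also higher than the single mutants of the classes in D1. Over D the folds were 3.63 ± 0.938 SE in twi:CD2+ and 2.66 ± 0.564 SE in mef2:CD2- cells (adjusted p = 8.39e-04 and 3.10e-04), and over the CG12236-PB mutant they were 2.46 ± 0.574 and 1.77 ± 0.327 SE (adjusted p = 0.00120 and 0.0162), by the exact permutation test. Against DS and S1, the double mutants that share the Schlank changes shown above, ChIPCRM2847-DS1 had folds of 0.640 and 0.593 in twi:CD2+ cells and 0.533 and 0.530 in mef2:CD2- cells, none of them called. With a minimum of 20 DNA UMIs the mef2:CD2- folds over DS and S1 were called, and the fold over S1 also without replicate 5. The means of DS1, DS and S1 were thus all higher than that of D1.

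ChIPCRM2000-DZ1 differed from its D1 and Z1 double mutants in mef2:CD2- cells. The paper reports that the DZ form of this enhancer was not obtained. Its mean of 0.0512 ± 0.0365 (SD, n = 12) was 0.375 ± 0.144 SE of D1 (0.136 ± 0.153, SD, n = 12; adjusted p = 0.0168) and 0.261 ± 0.0562 SE of Z1 (0.196 ± 0.0427, SD, n = 12; adjusted p = 1.11e-05), by the exact permutation test. In twi:CD2+ cells the folds were 1.03 ± 0.417 and 0.667 ± 0.247 SE, with intervals by tags of 0.307 to 2.79 and 0.183 to 1.66, and neither was called. The intervals by tags of the called folds were 0.148 to 1.24 over D1, which includes 1, and 0.0760 to 0.637 over Z1. The call over D1 was lost without replicate 6 (fold 0.406), while both were called within each week.

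The other 6 triple mutants (ChIPCRM2497-DS1, ChIPCRM3407-DSZ, ChIPCRM5405-DSZ, ChIPCRM5792-DZ1, ChIPCRM5857-DS1 and hth_3-DZ1) were not called against any of their measured double mutants. Under other settings in mef2:CD2- cells, ChIPCRM3407-DSZ was called against DZ and SZ with a minimum of 20 DNA UMIs, and ChIPCRM5792-DZ1 against D1 in week 1 alone and without replicate 5. Their folds lay from 0.524 (ChIPCRM5405-DSZ over DZ in twi:CD2+ cells) to 1.32 (ChIPCRM3407-DSZ over SZ in mef2:CD2- cells). With 3 tags on either side, the spread between tags gives a 95% interval of 2.46-fold either way in twi:CD2+ cells and 2.38-fold in mef2:CD2- cells, so smaller differences were not detectable over tags.

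Against single mutants, 3 of 23 pairs were called lower and 2 higher in twi:CD2+ cells, and 8 of 29 lower and 5 higher in mef2:CD2- cells. Over all pairs that differ by 2 motif classes, double mutants against WT included, the shares were 18% lower and 6% higher in twi:CD2+ cells and 34.5% lower and 12.1% higher in mef2:CD2- cells. None of these 18 calls remained with tag means, and the interval by tags included 1 for 9 of them. Only CBP2862-DSZ over Z in both populations and ChIPCRM2497-DS1 over S in twi:CD2+ cells could pass the test on tag means. Its smallest p, before any adjustment, was 0.0286 for these and 0.1 or more for the others. ChIPCRM3407-DSZ was lower than its S and Z single mutants in mef2:CD2- cells (folds 0.363 ± 0.120 and 0.116 ± 0.0489 SE; adjusted p = 0.0454 for both, exact permutation test). The interval by tags was 0.110 to 1.29 over S. The 2 tags of ChIPCRM3407-Z averaged 0.174 and 1.90, so the fold over Z rests largely on the higher one. ChIPCRM5792-DZ1, without a WT to compare with, was 0.515 ± 0.102 SE of its ZIPIC single mutant there (means of 1.31, n = 12, against 2.55, n = 18; adjusted p = 0.00301, exact permutation test; interval by tags 0.241 to 1.68).

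If the motif classes acted independently, the fold of the triple mutant would be the product of the folds of the 3 single mutants, taken on geometric means. This could be computed for 5 triple mutants in twi:CD2+ and 7 in mef2:CD2- cells, and none was called by a permutation test of the residuals with Benjamini-Hochberg adjustment at 0.1, against 20% and 22.6% of all double and triple mutants. Without adjustment, 0 of 5 and 1 of 7 had p under 0.05. CBP2862-DSZ was at 0.0995 of WT against an expected 0.0728 in twi:CD2+ cells, and at 0.0762 against 0.112 in mef2:CD2- cells. The deviations were 0.45 ± 1.40 and -0.56 ± 1.20 (log2, SE), so the collapse of CBP2862 was within error of the product, and so were 2-fold departures from it.

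CG7759_33-DSZ was at 3.75 times WT in mef2:CD2- cells against an expected 3.84 (deviation -0.04 ± 0.46, log2, SE). Its observations all came from 1 tag and count as independent here, so that SE does not take tags as the unit. ChIPCRM5432-DZ1 was at 0.547 of WT against 0.199 expected in twi:CD2+ cells (1.46 ± 0.80, log2, SE; adjusted p = 0.234, permutation test) and 0.637 against 0.351 in mef2:CD2- cells (0.86 ± 0.81). The D1 double mutant of the same enhancer fell short of its own product by -6.73 ± 0.65 in twi:CD2+ and -6.60 ± 0.47 in mef2:CD2- cells (log2, SE; adjusted p = 1.40e-04 for both, permutation test). ChIPCRM2497-DS1 in mef2:CD2- cells, at 0.669 against 0.336 expected (0.99 ± 0.46, log2, SE; adjusted p = 0.144, permutation test), was the 1 with p under 0.05 before adjustment.

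Hence in ChIPCRM5432 the triple mutant lay nearer to the product of the single mutants than the D1 double mutant did. Its DZ and Z1 double mutants were as near or nearer (log2 deviations of 0.54 and 0.72 in twi:CD2+, -0.05 and 0.86 in mef2:CD2- cells). In CBP2862, DS deviated by 2.33 in twi:CD2+ and 1.48 in mef2:CD2- cells, and DZ by 1.73 and 2.51 (log2). Both were farther from their products than the triple mutant, while SZ deviated by -0.16 and -0.75. In CG7759_33, DZ was at 0.179 of WT in mef2:CD2- cells against 2.07 expected (-3.53 ± 0.35, log2, SE; adjusted p = 1.40e-04, permutation test). The triple mutant, on 1 tag, lay nearer to its product as given above. Whether the triple and double mutants differ in their deviation was not tested.

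The triple mutants had a similar order of levels in both populations, and no difference in level was called. Any such difference could not be told apart from one of collection time or parental flies. Over the 9 measured in both, Spearman's rho between twi:CD2+ and mef2:CD2- activities was 0.983, as a description, since these constructs share tags, pool and assay. By edgeR's quasi-likelihood test of RNA over DNA counts, with a term for each collection and Benjamini-Hochberg adjustment at 0.05, 0 of 10 triple mutants differed between twi:CD2+ and mef2:CD2- cells, against 3.33% of the 90 constructs tested. Unadjusted p was under 0.05 for 3 of the 10 and for 20 of the 90, and DESeq2 called none of the 10 either. By edgeR, the log2 fold of twi:CD2+ over mef2:CD2- cells was 0.63 ± 0.25 for hth_3-DZ1 (adjusted p = 0.124), 0.54 ± 0.24 for ChIPCRM5792-DZ1 (adjusted p = 0.176) and -0.92 ± 0.41 for ChIPCRM2000-DZ1 (adjusted p = 0.176), SE throughout. The WT of the same enhancers had values of 0.64 ± 0.24 for hth_3 and -0.87 ± 0.55 for ChIPCRM2000, similar in size to those of the triple mutants. With week 2 alone on the mef2:CD2- side, ChIPCRM2000-DZ1 was called, and ChIPCRM3407-DSZ had too few counts to be tested.

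The fold over WT was compared between populations on log2 folds taken within collections, with an exact permutation test. None of 8 triple mutants was called, against 0% of 63 mutants, and unadjusted p was under 0.05 for 0 of 8 and 3 of 63. The smallest p this test allows is 0.0119 with 3 against 6 collections and 0.0179 for CBP2862 with 3 against 5, so no triple mutant could pass over 63 tests unless many did. For CBP2862-DSZ the collection folds were -3.08 ± 0.86 in twi:CD2+ cells (log2, SD, n = 3) and -2.91 ± 0.62 in mef2:CD2- cells (log2, SD, n = 5; unadjusted p = 0.696, exact permutation test). For ChIPCRM2000-DZ1, which was collapsed by the rule in mef2:CD2- cells only, they were -1.77 ± 1.68 and -2.03 ± 1.00 (log2, SD, n = 3 and 6; unadjusted p = 0.774, exact permutation test), so no difference between populations was detected for it.

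Among themselves, the triple mutants spanned 124-fold in twi:CD2+ cells (0.0296 for ChIPCRM5857-DS1 to 3.67 for ChIPCRM5432-DZ1) and 127-fold in mef2:CD2- cells (0.0263 to 3.34 for the same constructs). The order in twi:CD2+ cells, low to high, was ChIPCRM5857, ChIPCRM2000, CBP2862, ChIPCRM2847, ChIPCRM5405, ChIPCRM2497, ChIPCRM5792, hth_3 and ChIPCRM5432. Of the neighbours in that order, only CBP2862 over ChIPCRM2000 (3.14-fold, interval by tags 1.15 to 8.60) and ChIPCRM2497 over ChIPCRM5405 (3.22-fold, 1.31 to 7.92) differed beyond the spread between tags. In the mef2:CD2- population the only such step was ChIPCRM2497 over ChIPCRM5405 (4.07-fold, 1.71 to 9.69).

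That step separates a low set (ChIPCRM5857, ChIPCRM2000, CBP2862, ChIPCRM3407, ChIPCRM2847 and ChIPCRM5405) from a high set (ChIPCRM2497, hth_3, ChIPCRM5792, CG7759_33 and ChIPCRM5432) in mef2:CD2- cells. The order and the step come from the same values, and the intervals were not adjusted over the steps, so these sets are a description. The level without the 3 motif classes followed the WT level, with a Spearman's rho of 0.929 over 8 enhancers in twi:CD2+ cells and 0.745 over 10 in mef2:CD2- cells, given as a description. All 3 kinds of triple mutant, -DSZ, -DS1 and -DZ1, occurred in the low set, and each also occurred in the high set.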

How the data were processed

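The data are 18 libraries of reporter tags, RNA and DNA from 9 collections of sorted embryonic cells. Per the labels and the study's methods, the authors read the UMI from the 8 leading bases, removed constant ends with cutadapt, matched tags with Bowtie to the constructs they had been assigned to, and deposited counts per tag, as UMIs and as reads. Their processing notes also name R 3.5.1. The files write 7 where Z is used here for ZIPIC.

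From the deposited UMI counts, activity was computed as the share of RNA UMIs over the share of DNA UMIs. Tags needed at least 65 DNA UMIs and had to be present in the RNA library, and constructs with at least 4 observations were used. A Kruskal-Wallis test over an enhancer series (100000 permutations, threshold 0.1) preceded the pairwise exact permutation tests on ranks, adjusted over the pairs of the series. Tag intervals used a spread of tag means pooled over all constructs, 0.81 (log2) in twi:CD2+ and 0.78 in mef2:CD2- cells. Populations were compared with edgeR 4.0.16 (TMM, at least 10 counts in every library, threshold 0.05), with DESeq2 1.42.0 as an alternative, in R 4.3.3. Other steps used Python 3.11.15, NumPy 2.4.6, pandas 2.3.3 and SciPy 1.17.1, and scripts were tested on simulated data.

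RNA and DNA of a collection were paired because they came from the same cells, and deviations of their tags correlated with r of 0.370 to 0.647 over 140 tags. Alternatives were the DNA minimum, read counts, UMIs corrected for repeats, medians, geometric means, tag means, scaling by the median construct, a replicate block, single weeks, and leaving out each collection or tag. Another counted tags absent from RNA as 0, which kept all 23 calls against WT or double mutants and gained none. The members and lists were chosen with earlier results of these data known, and the comparison with single mutants was added after the data were seen. Constructs named are all triple mutants and the mutants they were set against. Intervals cover the spread between tags only, and reads of a PCR product are not independent molecules.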

Additional observations from a re-analysis of the deposited data

Results flagged for a closer look

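ChIPCRM5405-DSZ stood out in 1 collection. Its mean activity in mef2:CD2- replicate 5 was 0.419, while the other 5 collections lay between 0.144 and 0.228, and the gap was 0.694 of the whole range. The WT of the same enhancer was also at its highest in that collection, at 0.395. Of 11 groups of collections examined in this way, 1 stood apart, and chance sets apart about 1 in 20.

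Values in twi:CD2+ cells that were too few to enter a comparison were above 0 for both remaining triple mutants. CG7759_33-DSZ had a mean activity of 2.23 in twi:CD2+ cells, from 3 observations of 1 tag at 2.22 to 2.25, against 0.379 ± 0.420 for WT and 0.312 ± 0.295 for DZ (SD) in the same cells. ChIPCRM3407-DSZ had a mean of 0.199 in twi:CD2+ cells, with values of 0.106 and 0.292, against WT collection means of 0.288, 0.195 and 0.405.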

How the results depend on the processing

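Of 632 values of 34 folds under other settings, 37 lost a call, 6 gained a call and 21 changed direction. The rest kept their direction and, where a test was run, their call status. Values with a tag left out were folds without a test and were compared on direction alone. Settings in which a fold had no value are not among the 632, so calls lost in that way are not counted here. Of the folds that changed direction, only ChIPCRM5432-DZ1 over Z1 in mef2:CD2- cells had been called. ChIPCRM3407-DSZ over WT in mef2:CD2- cells was 1.03 and ChIPCRM5432-DZ1 over Z1 1.00 with a minimum of 20 DNA UMIs, and ChIPCRM5405-DSZ over WT in twi:CD2+ cells was 1.01 with a minimum of 200. ChIPCRM5857-DS1 over WT in mef2:CD2- cells was 0.915 by geometric means, 0.820 in week 2 and 0.971 from reads, and 0.773 to 1.31 when a collection or tag was left out, while in twi:CD2+ cells it was 1.01 by geometric means. hth_3-DZ1 over WT in mef2:CD2- cells was 1.03 by medians, 1.10 in week 1, 1.01 with the minimum of 200 and 1.04 from reads, and 0.928 to 1.04 with a collection or tag left out. In twi:CD2+ cells hth_3-DZ1 over WT was 1.03 by geometric means and 1.02 by medians, and 0.4999 to 1.27 with a collection or tag left out.

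Calls against double mutants in mef2:CD2- cells, 11 in all, came to 6 in week 2 alone and to 14 with a minimum of 20 DNA UMIs (ChIPCRM2847-DS1 over DS and S1 and ChIPCRM3407-DSZ over DZ and SZ gained, ChIPCRM5432-DZ1 over Z1 lost), and the 5 in twi:CD2+ cells came to 8 with a minimum of 2 observations and to 3 to 4 with a collection left out. Calls against WT in mef2:CD2- cells, 5 in all, came to 2 in week 1 and 1 in week 2 alone. CBP2862 and CG7759_33 had too few observations to be tested against WT in either week. Against WT and double mutants together, 5 of the 7 calls lost in week 1 and 6 of the 9 lost in week 2 had no value. The 2 calls against WT in twi:CD2+ cells came to 5 from reads (ChIPCRM2000-DZ1, ChIPCRM2847-DS1 and ChIPCRM5432-DZ1 added) and to 0 to 1 with a collection left out, where CBP2862 had no value each time for lack of WT observations. With tag means all of these counts were 0. As given above, that test could not pass these calls, apart from ChIPCRM2847-DS1 over D1 in mef2:CD2- cells. Calls against the product of the single mutants were 0 to 1 with a collection left out in either population, with ChIPCRM2497-DS1 called in mef2:CD2- cells without replicate 3 or 6 (2.33 and 2.09 times the expected fold) and ChIPCRM5432-DZ1 in twi:CD2+ cells without replicate 3 (4.09 times). Calls between populations by edgeR came to 1 with week 2 alone. Apart from fewer observations, the causes were not tested. Under the replicate block, the counts stayed 2, 5, 5 and 11, and all 23 calls were kept. Replicate numbers are only names across populations, where deviations correlated with r of -0.33 to 0.17.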
